A study of Mus musculus with 6 samples.

Results

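The 10 genes described here encode the myelin-associated inhibitors of axon growth and the receptor complex that reads them: the ligands *Rtn4*, *Omg* and *Mag*, the receptors *Rtn4r*, *Rtn4rl1* and *Rtn4rl2*, and the coreceptors *Lingo1*, *Lingo2*, *Lingo3* and *Ngfr*. They were chosen by name, with earlier results of these data known, and all 10 were found among the 55573 genes of a table of RNA-Seq read counts. The table covers 6 libraries from adult C57BL/6J mice of both sexes. In 3 control libraries (the GFP group) the eye had received AAV2-*GFP*, an adeno-associated virus injected into the vitreous, and in the other 3 (the Ezh2 group) it had received AAV2-*Ezh2*. The *Ezh2* product is the enzyme of Polycomb repressive complex 2, which methylates histone H3. Both groups had optic nerve crush (ONC) 2 weeks after the injection, and retinal cells were sorted 3 days after ONC to enrich retinal ganglion cells (RGCs), which send their axons through that nerve. The sort gated living cells positive for CD90.2, the product of *Thy1*. The promoter that drives the transgene was not given in the sources used here, and the labels do not say whether replicates came from separate animals, so p values measure the spread between these libraries, which may be technical.

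Nogo (encoded by *Rtn4*), oligodendrocyte myelin glycoprotein (*Omg*) and myelin-associated glycoprotein (*Mag*) lie on oligodendrocytes and myelin and, in part, on neurons, and they make growth cones collapse in culture. They bind the Nogo receptor NgR1 (*Rtn4r*), a protein anchored in the outer membrane leaflet that has no intracellular part and needs partners such as LINGO-1 and the neurotrophin receptor p75 (*Ngfr*) to signal. The complex activates the small GTPase RhoA and its kinase ROCK, which act on the actin cytoskeleton. *Rtn4rl2* and *Rtn4rl1* encode NgR2 and NgR3, the close relatives of NgR1.

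Library totals ranged from 30569933 to 35971192 counts, and a count of 0 in the deepest and the shallowest library allows up to 0.0834 and 0.0981 CPM (counts scaled to a common library total), a limit that covers counting error only. *Ezh2* itself was at 28.8 to 34.6 CPM in the GFP libraries and at 65.3 to 104.8 CPM in the Ezh2 libraries. Ezh2 replicate 3 stood apart from all other libraries, with correlations of log2 CPM across genes of 0.958 to 0.972 against 0.976 to 0.988 among the other 5. The study left 1 Ezh2 library out, inferred to be this one from the columns of its heatmap. The main comparison therefore set Ezh2 replicates 1 and 2 against GFP replicates 1 to 3, and results of the members are also given with all 6 libraries. To be called lower or higher, a gene needed a fold change above 1.5 and an edgeR adjusted p under 0.05.

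Compared to the control group, *Omg*, *Lingo3* and *Lingo2* were lower in the libraries of the Ezh2 group. *Omg* decreased by 36.0%, *Lingo3* decreased by 39.1% and *Lingo2* decreased by 55.2%. *Ngfr* and *Rtn4* also changed, each by less than the fold threshold: *Ngfr* fell by 22.9% and *Rtn4* fell by 15.2%. No difference was detected for the 3 Nogo receptors, *Lingo1* or *Mag*. Of the 10 members, which all passed the filter on low counts, 3 were called lower and 0 higher in the 5 libraries, where 1.28% of 20241 tested genes were called lower and 2.52% higher. With all 6 libraries 2 members, *Omg* and *Lingo3*, were called lower, beside 0.902% of 19732 tested genes, and 0 were called higher, beside 1.62%. Whatever the fold, 5 members had an edgeR adjusted p under 0.05 and were lower in the 5 libraries (7.68% of all tested genes), and 3 in all 6 libraries (2.70%). None was higher at any fold, where 10.1% of all tested genes were in the 5 libraries and 3.08% in all 6. The median log2 fold change was -0.15 over the members and -0.01 over all tested genes in the 5 libraries, and -0.33 and 0.01 in all 6 libraries. The CPM of the Ezh2 libraries lay below those of all GFP libraries for 5 members, both with and without Ezh2 replicate 3. The share of all tested genes with that pattern was 23.4% in the 5 libraries and 19.3% in all 6. The study had picked *Omg* and *Lingo3* on these libraries, so their fall is not independent evidence. In such bulk samples, fewer cells of a type and less RNA per cell cannot be told apart.

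**Figure D1:**
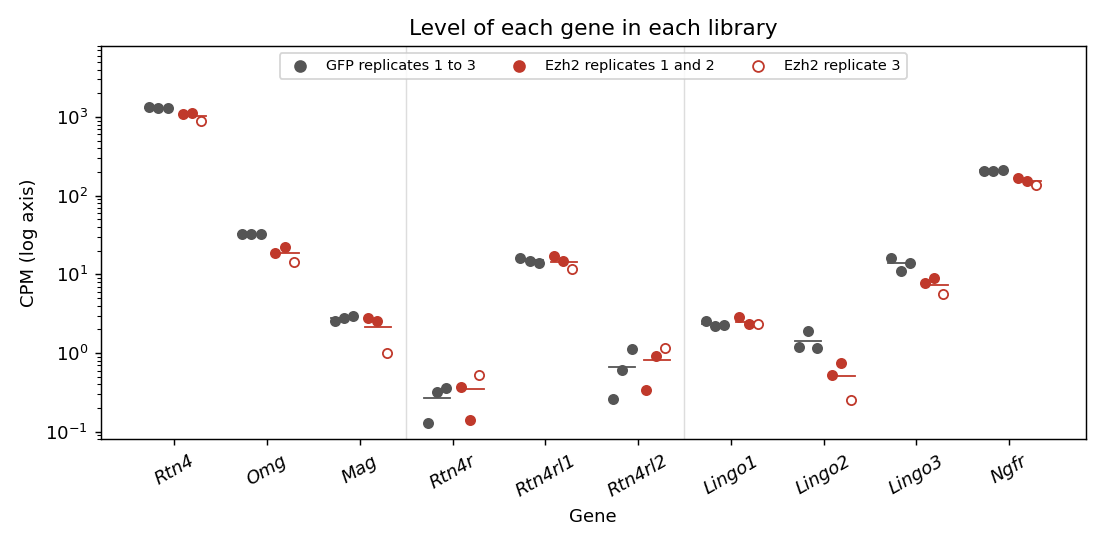
Level of each gene (CPM, log axis) in each of the 6 libraries. Grey points are GFP replicates 1 to 3, filled red points Ezh2 replicates 1 and 2, and the open red point Ezh2 replicate 3. Lines mark the means of 3 libraries. The groups are separate for *Rtn4*, *Omg*, *Lingo2*, *Lingo3* and *Ngfr* and overlap for the other 5 genes.

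**Figure D2:**
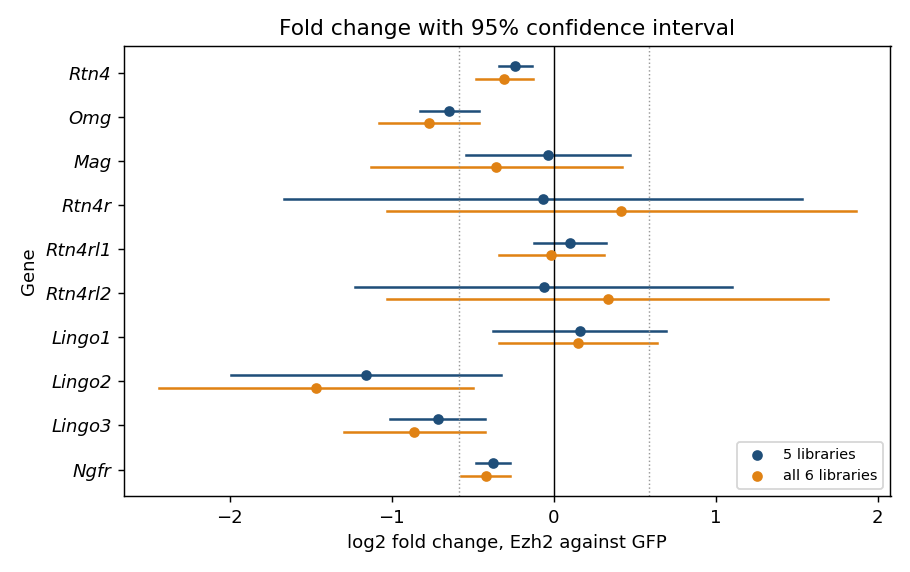
The log2 fold change of each gene, Ezh2 against GFP, with its 95% confidence interval from edgeR, in the 5 libraries (blue) and in all 6 (orange). Dotted lines mark a fold change of 1.5. The intervals of *Rtn4*, *Omg*, *Lingo2*, *Lingo3* and *Ngfr* lie below 0 in both fits, and those of *Rtn4r* and *Rtn4rl2* are the widest.

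Levels were compared between genes per length, as RPKM (CPM per kilobase of annotated exon), which pools all isoforms of a gene. In the GFP libraries *Rtn4* had the highest RPKM of the 10 genes, at 188 ± 4.76 (SD, n = 3), followed by *Ngfr* at 60.9 ± 1.08 and *Omg* at 14.5 ± 0.0798. These 3 were separate from each other and from all lower genes in every GFP library. *Rtn4rl1*, at 4.27 ± 0.295 RPKM, and *Lingo3*, at 3.87 ± 0.689 RPKM, overlapped and could not be ordered. *Mag* followed at 0.679 ± 0.0584 RPKM, and its GFP libraries did not overlap with those of *Lingo1* at 0.493 ± 0.0357 RPKM. *Rtn4rl2*, at 0.443 ± 0.294 RPKM, overlapped with both of its neighbours in this order. The lowest levels were those of *Lingo2*, at 0.173 ± 0.0513 RPKM, and *Rtn4r*, at 0.138 ± 0.0623 RPKM, which overlapped too. In the Ezh2 libraries the first 5 genes kept this order, and *Lingo3*, at 2.08 ± 0.465 RPKM (SD, n = 3), lay below *Rtn4rl1*, at 4.13 ± 0.784 RPKM, with no overlap.

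The deposited table gives no sequence, and the windows upstream of the members were read from RefSeq (GRCm38.p6), which had an entry for 8 of the 10 genes, all but *Omg* and *Rtn4rl1*. CG dinucleotides were counted in the 250 bases before each start, because CG-rich promoters are the usual sites of Polycomb binding in mammals. CG reads the same on both strands. Over 32851 such windows the median was 6 CG, and 92.1% held at least 1. The window of *Lingo3* held 27 CG, a number reached by 8.56% of all windows, and that of *Rtn4r* held 38, reached by 1.88%. The window of *Lingo2* held 0 CG and lies 232784 bases inside the *Lingo2* gene as annotated by GENCODE, so it is the window of an internal start. These 3 are shown because *Lingo3* and *Lingo2* were both called lower and their windows differ in CG content. *Rtn4r*, with the most CG of the 8, was near the floor of detection. The window at the annotated 5' end of *Lingo2* was not read. Capitals mark each CG and all other bases are in lower case. The windows lie at chr10:80844040-80844289 (minus strand) for *Lingo3*, chr4:36718964-36719213 (minus strand) for *Lingo2* and chr16:18127392-18127641 (plus strand) for *Rtn4r*, and none overlaps an annotated exon.
Lingo3: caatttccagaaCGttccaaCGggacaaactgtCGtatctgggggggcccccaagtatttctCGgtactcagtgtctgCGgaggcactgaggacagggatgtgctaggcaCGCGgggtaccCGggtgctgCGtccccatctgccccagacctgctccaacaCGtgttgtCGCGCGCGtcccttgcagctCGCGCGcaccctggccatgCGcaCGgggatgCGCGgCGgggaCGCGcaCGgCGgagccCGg
Lingo2: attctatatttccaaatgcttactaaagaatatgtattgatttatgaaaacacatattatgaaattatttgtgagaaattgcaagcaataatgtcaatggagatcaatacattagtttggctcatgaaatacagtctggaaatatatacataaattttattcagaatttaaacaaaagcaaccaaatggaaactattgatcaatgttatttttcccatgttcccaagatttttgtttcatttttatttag
Rtn4r: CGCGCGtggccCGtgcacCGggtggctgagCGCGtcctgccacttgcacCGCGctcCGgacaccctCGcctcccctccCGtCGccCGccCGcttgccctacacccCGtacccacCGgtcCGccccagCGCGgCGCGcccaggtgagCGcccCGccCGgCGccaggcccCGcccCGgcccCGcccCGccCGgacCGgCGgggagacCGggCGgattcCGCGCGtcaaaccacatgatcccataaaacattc
Of the other members, *Lingo1* had 31 CG (reached by 5.19% of windows) with no detected change, *Rtn4rl2* 29 (6.78%), *Ngfr* 16 (25.4%), *Rtn4* 12 (33.5%) and *Mag* 3 (71.0%). The window of *Lingo1* holds 158 bases of annotated exon, so part of it lies inside the gene as annotated by GENCODE. The windows of *Ngfr*, *Rtn4rl2*, *Mag* and *Rtn4* hold 37, 18, 12 and 0 such bases. Apart from the internal window of *Lingo2* with 0, the windows of members called lower, or lower at any fold, ranged from 12 to 27 CG. *Omg*, also called lower, had no window. Among the members with no detected change the windows ranged from 3 to 38 CG. No binding or methylation was measured in these libraries, and the counts of CG describe the windows only.

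Among the ligands, *Rtn4* (ENSMUSG00000020458, GRCm38 chr11:29692947-29744331, plus strand) encodes Nogo, whose isoforms Nogo-A, Nogo-B and Nogo-C share a membrane-bound end and were pooled in these gene counts. *Rtn4* was at 1352, 1305 and 1287 CPM in GFP replicates 1 to 3, and at 1083, 1129 and 900 CPM in Ezh2 replicates 1 to 3. All 3 Ezh2 libraries were below all GFP libraries, and replicate 3 was the lowest. The log2 fold change was -0.24 ± 0.05 (SE; 95% CI, -0.34 to -0.14) in the 5 libraries, with an edgeR adjusted p of 0.000864. With all 6 it was -0.31 ± 0.08, and the edgeR adjusted p of 0.0529 missed the threshold. *Rtn4* shares 1284 exon bases with *Eml6*, a gene on the opposite strand that was at 104 to 120 CPM in the GFP libraries and had a log2 fold change of -0.19 (edgeR adjusted p = 0.0229). Whether strand was used in counting is not given in the sources used here, so reads in the shared bases cannot be assigned to either gene. The gene made up 61.4% ± 0.805 of the summed RPKM of the 4 reticulons *Rtn1* to *Rtn4* in the GFP libraries and 61.1% ± 0.686 in the Ezh2 libraries (SD, n = 3). Of the other reticulons, *Rtn3*, an endoplasmic reticulum protein, had nearly the same log2 fold change as *Rtn4*, -0.27 ± 0.05, with an edgeR adjusted p of 0.000107. *Rtn1* and *Rtn2* had log2 fold changes of -0.08 and 0.11, with edgeR adjusted p values of 0.417 and 0.661.

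*Omg* (ENSMUSG00000049612, chr11:79500982-79504084, minus strand) encodes a membrane-anchored glycoprotein of oligodendrocytes and neurons. It was at 32.6, 32.5 and 32.2 CPM in GFP replicates 1 to 3, and at 18.9, 22.2 and 14.5 CPM in Ezh2 replicates 1 to 3. The groups were far apart, and the GFP libraries differed by less than their counting error: their coefficient of variation was 0.549%, where counting alone gives 3.16%. *Omg* fell by 0.64 ± 0.09 (SE; 95% CI, -0.83 to -0.46) on the log2 scale, with an edgeR adjusted p of 3.72e-06. With all 6 libraries the log2 fold change was -0.77 ± 0.14, with an edgeR adjusted p of 0.015. Without Ezh2 replicate 1, the log2 fold change of *Omg* in the remaining libraries of the 5 was -0.52, below the fold threshold, with an edgeR adjusted p of 0.00036. Of the 6 libraries, the edgeR adjusted p was 0.0995 without GFP replicate 1, 0.0826 without replicate 2 and 0.102 without replicate 3.

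The whole of *Omg* lies inside *Nf1*, which encodes neurofibromin, an inhibitor of Ras signaling. *Nf1* runs on the opposite strand and shares 0 exon bases with *Omg*. *Nf1* had a log2 fold change of -0.22 ± 0.05, with an edgeR adjusted p of 0.00127. Since *Omg* sits in an intron, reads of unspliced *Nf1* RNA cannot be told apart from reads of *Omg* if strand was not used. The log2 ratio of *Omg* to *Nf1* counts was -3.76, -3.75 and -3.82 in GFP replicates 1 to 3, and -4.34, -4.07 and -4.50 in Ezh2 replicates 1 to 3. All Ezh2 libraries were below all GFP libraries, with a mean difference of -0.53. The exact permutation test gave a two-sided p of 0.1, the smallest that 3 against 3 libraries can give, so the design cannot reach 0.05. *Evi2a*, a small gene in the same part of *Nf1*, had a log2 fold change of 0.47 (edgeR adjusted p = 0.0076), and *Evi2*, the nearest gene to *Omg*, of 0.13 (adjusted p = 0.907).

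*Mag* (ENSMUSG00000036634, chr7:30899176-30914873, minus strand) encodes a sialic acid-binding protein of the innermost myelin wrap. *Mag* was at 2.52, 2.78 and 2.99 CPM in GFP replicates 1 to 3, and at 2.80, 2.57 and 1.00 CPM in Ezh2 replicates 1 to 3. Ezh2 replicates 1 and 2 lay within the range of the GFP libraries and Ezh2 replicate 3 lay below it. The log2 fold change was -0.03 ± 0.25 (SE; 95% CI, -0.54 to 0.47) in the 5 libraries, with an edgeR adjusted p of 0.952, and -0.36 ± 0.34 with an adjusted p of 0.542 in all 6. At this depth a change of *Mag* within that interval was not detectable. By RPKM, *Mag* made up 0.334% ± 0.0362 of the 3 ligands in the GFP libraries and *Omg* 7.16% ± 0.135, with *Rtn4* the rest. In the Ezh2 libraries the share of *Omg* was 5.25% ± 0.51 (SD, n = 3) and lower in each of them than in any GFP library.

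*Mag* and *Omg* are known for oligodendrocytes, so the markers of these cells were read in the same libraries. The mouse retina has no myelin, and *Mog*, *Mobp*, *Opalin*, *Olig1* and *Olig2*, which define oligodendrocytes and their myelin, had a count of 0 in all 6 libraries. *Mbp*, which has transcripts outside myelin as well, was at 37.5 to 40.4 CPM in the GFP libraries and at 46.1 to 59.9 CPM in the Ezh2 libraries. Its log2 fold change of 0.36 ± 0.08 (edgeR adjusted p = 0.000735) was opposite in direction to that of *Omg*. Of the 14 markers 7 were tested and 0 were called. Their summed level was 180.6 to 184.9 CPM in the GFP libraries, 191.8 to 199.5 CPM in Ezh2 replicates 1 and 2 and 199.4 CPM in replicate 3.

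Of the receptors, *Rtn4r* (ENSMUSG00000043811, chr16:18127642-18152408, plus strand), which encodes NgR1 itself, was covered by 4, 10 and 11 reads in the GFP libraries and by 12, 5 and 19 reads in the Ezh2 libraries, in replicate order. These correspond to 0.131, 0.316 and 0.358 CPM against 0.373, 0.143 and 0.528 CPM, and the groups overlapped. The log2 fold change was -0.06 ± 0.78 (SE; 95% CI, -1.66 to 1.53), with an edgeR adjusted p of 0.972. The interval spans more than the changes of *Omg* and *Lingo3*, so a change of their size was not detectable for *Rtn4r* at this depth. With all 6 libraries the sign turned, to 0.42 ± 0.64, with an adjusted p of 0.714.

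*Rtn4rl1* (ENSMUSG00000045287, chr11:75193783-75267769, plus strand) encodes NgR3, which binds inhibitory proteoglycans of the glial scar. It was at 16.2, 14.8 and 14.2 CPM in GFP replicates 1 to 3, and at 17.1, 14.9 and 11.6 CPM in Ezh2 replicates 1 to 3. Ezh2 replicate 1 was the highest of all libraries and Ezh2 replicate 3 the lowest. The log2 fold change of 0.10 ± 0.11 had a 95% CI of -0.12 to 0.32, with an edgeR adjusted p of 0.603. In all 6 libraries it was -0.02 ± 0.14, with a CI of -0.34 to 0.31 and an edgeR adjusted p of 0.958. In both fits the interval leaves out a fall of the size seen for *Omg* or *Lingo3*. *Rtn4rl2* (ENSMUSG00000050896, chr2:84871924-84886710, minus strand) encodes NgR2, a receptor of MAG. It had 8, 19 and 35 counts in the GFP libraries and 11, 32 and 42 counts in the Ezh2 libraries. The counts varied within each group as widely as between the groups, and the log2 fold change was -0.06 ± 0.57 (edgeR adjusted p = 0.961). It was 0.33 ± 0.60 in all 6 libraries (edgeR adjusted p = 0.76). By RPKM, *Rtn4rl1* made up 88.1% ± 7.0 of the 3 Nogo receptors in the GFP libraries and 84.7% ± 8.18 in the Ezh2 libraries (SD, n = 3), and *Rtn4r* 2.85% ± 1.27 and 3.81% ± 2.39.

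**Figure D3:**
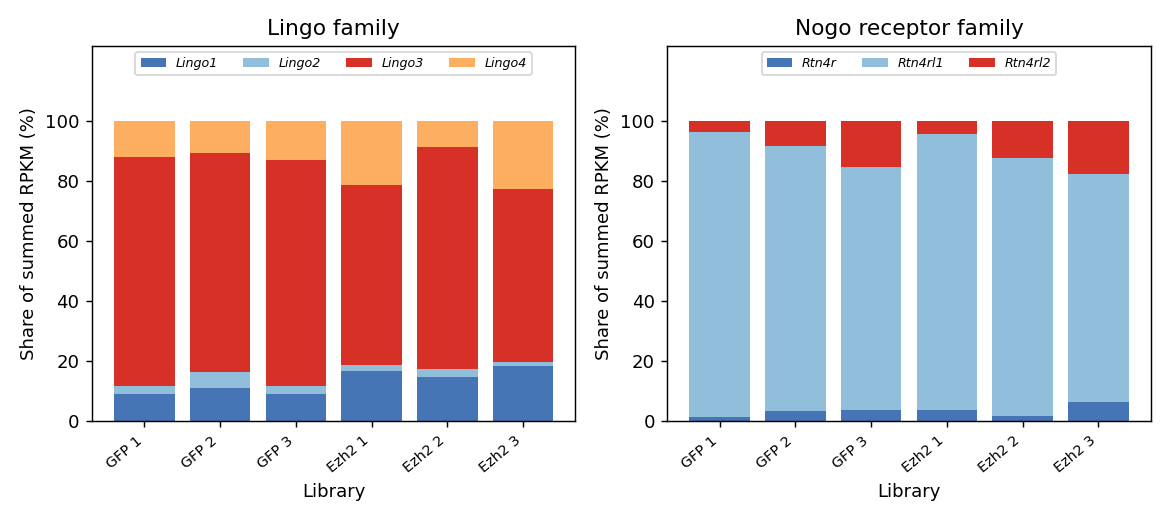
Share of each gene in the summed RPKM of its family (%) in each library, for the Lingo genes with *Lingo4* (left) and the Nogo receptors (right). *Rtn4rl1* holds 75.9% to 95% of the Nogo receptor sum in every library. *Lingo3* holds 73.0% to 76.5% of the Lingo sum in GFP libraries and 57.9% to 74.0% in Ezh2 libraries.

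The Lingo genes encode transmembrane proteins with leucine-rich repeats and an immunoglobulin domain. LINGO-1 is the known partner of NgR1, and the roles of LINGO-2 and LINGO-3 are less defined. *Lingo3* (ENSMUSG00000051067, chr10:80832801-80844039, minus strand) was at 16.1, 11.2 and 14.1 CPM in GFP replicates 1 to 3, and at 7.73, 8.88 and 5.62 CPM in Ezh2 replicates 1 to 3. Each Ezh2 library was below each GFP library, although the GFP libraries themselves varied, with a coefficient of variation of 17.8% where counting alone gives 4.85%. *Lingo3*, the gene with 27 CG upstream, fell by 0.72 ± 0.14 (SE; 95% CI, -1.01 to -0.42) on the log2 scale, with an edgeR adjusted p of 0.000525. With all 6 libraries the log2 fold change was -0.86 ± 0.19, with an edgeR adjusted p of 0.0358. *Lingo3* stayed called whichever of the 5 libraries was left out, with adjusted p values of 7.03e-05 to 0.0135. In the fit to 6 libraries the call was lost without GFP replicates 1, 2 or 3 (adjusted p = 0.176, 0.0732 and 0.178) and without Ezh2 replicate 1 (0.0806).

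*Lingo1* (ENSMUSG00000049556, chr9:56618475-56796468, minus strand) encodes LINGO-1. It was at 2.52, 2.21 and 2.25 CPM in GFP replicates 1 to 3, and at 2.86, 2.31 and 2.36 CPM in Ezh2 replicates 1 to 3, and the groups overlapped. The log2 fold change was 0.16 ± 0.26 (SE; 95% CI, -0.37 to 0.69), with an edgeR adjusted p of 0.74, and 0.15 ± 0.22 in all 6 libraries (edgeR adjusted p = 0.696). The log2 ratio of *Lingo3* to *Lingo1* counts, in which library scaling cancels, was 2.67, 2.33 and 2.64 in GFP replicates 1 to 3, and 1.43, 1.93 and 1.24 in Ezh2 replicates 1 to 3. It was lower in 3 of 3 Ezh2 libraries than in any GFP library, with a mean difference of -1.01, and the exact permutation p was 0.1, the smallest possible. By RPKM, *Lingo1* made up 9.67% ± 1.07 of the Lingo sum in the GFP and 16.6% ± 1.92 in the Ezh2 libraries, where *Lingo3* made up 74.9% ± 1.74 and 64.0% ± 8.74 (SD, n = 3).

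*Lingo2* (ENSMUSG00000045083, chr4:35706647-36951747, minus strand) spans 1245101 bases but was covered by few reads, 37, 61 and 36 in the GFP libraries and 17, 26 and 9 in the Ezh2 libraries, in replicate order. In CPM these were 1.21, 1.93 and 1.17 against 0.528, 0.742 and 0.25, so every Ezh2 library was below every GFP library. *Lingo2* fell by 1.16 ± 0.41 (SE; 95% CI, -1.99 to -0.32) on the log2 scale, with an edgeR adjusted p of 0.0466, just inside the threshold. The direction was the same with all 6 libraries, at -1.47 ± 0.43, but the adjusted p was 0.0826 and the gene was not called. The call was also lost when GFP replicate 2, GFP replicate 3, Ezh2 replicate 1 or Ezh2 replicate 2 was left out of the 5 libraries, with edgeR adjusted p values of 0.23, 0.0529, 0.259 and 0.0824. Pseudogenes and small RNA genes lie within the span of *Lingo2* and share 0 exon bases with it.

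*Ngfr* (ENSMUSG00000000120, chr11:95568818-95587735, minus strand) encodes p75, which signals for NgR1 and also binds neurotrophins. It was at 208, 207.2 and 214 CPM in GFP replicates 1 to 3, and at 165.4, 155.8 and 137.3 CPM in Ezh2 replicates 1 to 3. The groups were well separated, and the GFP libraries had a coefficient of variation of 1.77%, close to the 1.24% that counting gives. *Ngfr* fell by 0.37 ± 0.05 (SE; 95% CI, -0.48 to -0.27) on the log2 scale, with an edgeR adjusted p of 2.25e-06. With all 6 libraries the log2 fold change was -0.42 ± 0.07, with an edgeR adjusted p of 0.0109. Both are below the fold threshold, so *Ngfr* was not called.

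Beyond the 10 members, 25 other genes of the pathway were read, and 24 of them were tested. In the 5 libraries 0 were called lower and 1 was called higher, and in all 6 libraries none was called in either direction. *Crtac1*, which encodes LOTUS, a secreted and membrane-bound antagonist of NgR1, was the 1 called higher. It was at 0.785, 0.126 and 0.488 CPM in GFP replicates 1 to 3, and at 1.34, 1.31 and 0.806 CPM in Ezh2 replicates 1 to 3, so the groups did not overlap at a low level. Its log2 fold change was 1.51 ± 0.50 (edgeR adjusted p = 0.0341), and the adjusted p was 0.174 with all 6 libraries. Of the other receptors of these ligands, *Pirb*, an immune receptor for Nogo, MAG and OMgp, had a log2 fold change of 0.47 ± 0.08 (edgeR adjusted p = 5.37e-05), and *S1pr2*, which binds Nogo-A, of 0.27 ± 0.07 (edgeR adjusted p = 0.0106). Neither passed the fold threshold, and with Ezh2 replicate 3, at 29.0 and 33.4 CPM, their adjusted p values were 0.0884 and 0.367.

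The receptor-type phosphatases that bind proteoglycans did not move together. *Ptprd* had a log2 fold change of -0.27 ± 0.05 (edgeR adjusted p = 0.000294), *Ptprs* of 0.04 (adjusted p = 0.699) and *Ptprf* of -0.01 (adjusted p = 0.941). *Lrp1*, a receptor that binds MAG, was at 1554 to 1675 CPM in the GFP libraries and had a log2 fold change of 0.04 (adjusted p = 0.624). *Tnfrsf19*, which encodes TROY and can take the place of p75, was at 1.36 to 2.39 CPM in the GFP libraries with a log2 fold change of 0.22 (adjusted p = 0.719), and *Lingo4* had one of -0.21 (adjusted p = 0.743). Among the 9 genes of the RhoA output, *Rhoa* had a log2 fold change of 0.08 and *Rock1* and *Rock2* of -0.09 and -0.14, with edgeR adjusted p values of 0.287, 0.31 and 0.0683. The 3 genes of this list named next were picked for their adjusted p. *Cfl1*, which encodes the actin-severing protein cofilin, rose by 0.41 ± 0.05 on the log2 scale (edgeR adjusted p = 9.39e-07), less than the fold threshold. *Arhgdia*, which encodes an inhibitor that holds RhoA inactive, rose by 0.28 ± 0.05 (edgeR adjusted p = 0.000135). *Arhgef12*, which encodes the RhoA activator LARG, fell by 0.15 ± 0.05 (edgeR adjusted p = 0.0261). At any fold 3 of the 24 genes were thus lower and 5 higher in the 5 libraries, beside 7.68% and 10.1% of all tested genes.

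The libraries were checked for the cells that could supply these transcripts. The RGC markers *Rbpms* and *Slc17a6* were at 16.4 to 17.9 and 4.09 to 4.98 CPM in the GFP libraries, *Pou4f1* reached at most 0.60 CPM and *Pou4f2* at most 0.0932 CPM in any library. The Müller glia markers *Glul*, *Slc1a3* and *Rlbp1* were at 9540 to 9900, 1843 to 1932 and 1488 to 1535 CPM in the GFP libraries. The defining markers of RGCs were therefore low beside those of Müller glia in libraries labelled as RGCs, and which cells supplied the members' reads was not measured.

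The summed level of 8 Müller glia markers was 26590 to 27190 CPM in the GFP libraries, 24630 to 26190 CPM in Ezh2 replicates 1 and 2 and 20010 CPM in Ezh2 replicate 3. None of the 8 was called lower in the 5 libraries and 1, *Apoe*, was called higher, and *Abca8a* was called lower in all 6. The median log2 fold change of the list was -0.26, and *Glul*, *Rlbp1* and *Slc1a3* fell by 0.49, 0.31 and 0.20 on the log2 scale (edgeR adjusted p = 4.01e-08, 2.74e-05 and 0.00605). The falls of *Rtn4* and *Ngfr* were of that size. Relative to the GFP mean, log2 CPM of *Omg* was at -0.78, -0.54 and -1.17 in Ezh2 replicates 1 to 3, and that of *Glul* at -0.49, -0.50 and -0.84. *Omg*, *Lingo3* and *Lingo2* were further below the GFP mean than each of the 8 Müller glia markers in each Ezh2 library. The summed level of 12 RGC markers moved the other way. It was 136.7 to 142.9 CPM in the GFP libraries, 166.0 to 176.2 CPM in Ezh2 replicates 1 and 2 and 183 CPM in replicate 3. Most of that RGC sum was *Thy1*, the gene of the sorted antigen, at 87.2 to 92.6 CPM in the GFP and 98.9 to 113.8 CPM in the Ezh2 libraries. Which cells supplied the *Thy1* reads was not measured. Of the 10 RGC markers tested in the 5 libraries, 3 were called higher. The summed level of 9 amacrine cell markers was 97.9 to 111.5 CPM in the GFP libraries, 69.1 to 72.1 CPM in Ezh2 replicates 1 and 2 and 66.8 CPM in replicate 3. In the 5 libraries 1 of 7 tested, *Tfap2b*, was called lower. Its log2 fold change of -2.72 was a larger fall than that of any member. Most of the amacrine sum was *Slc6a9* and *Slc17a8*, with log2 fold changes of -0.484 and -0.425 (edgeR adjusted p = 5.83e-05 and 0.000498). *Gad1* lay the other way, at 1.77 to 1.93 CPM in the GFP and 2.54 to 12.1 CPM in the Ezh2 libraries, without passing the test (edgeR adjusted p = 0.0537). In the 5 libraries the horizontal cell marker *Calb1* was also called lower, at a log2 fold change of -2.73, and the 7 cone markers were all called higher. So were 2 of 6 rod and 3 of 4 tested macrophage markers, *Gfap* of the 4 astrocyte markers and *Cd8a* of the 7 T cell markers. With all 6 libraries 2 cone and 0 rod markers were called higher. The summed rod marker level of Ezh2 replicate 3, 354.8 CPM, lay within the 321.5 to 384.6 CPM of the GFP libraries. None of the tested microglia, bipolar, B cell, vascular or Schwann cell markers was called in the 5 libraries. The part of these cell type shifts in the members' falls was not tested.

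**Figure D4:**
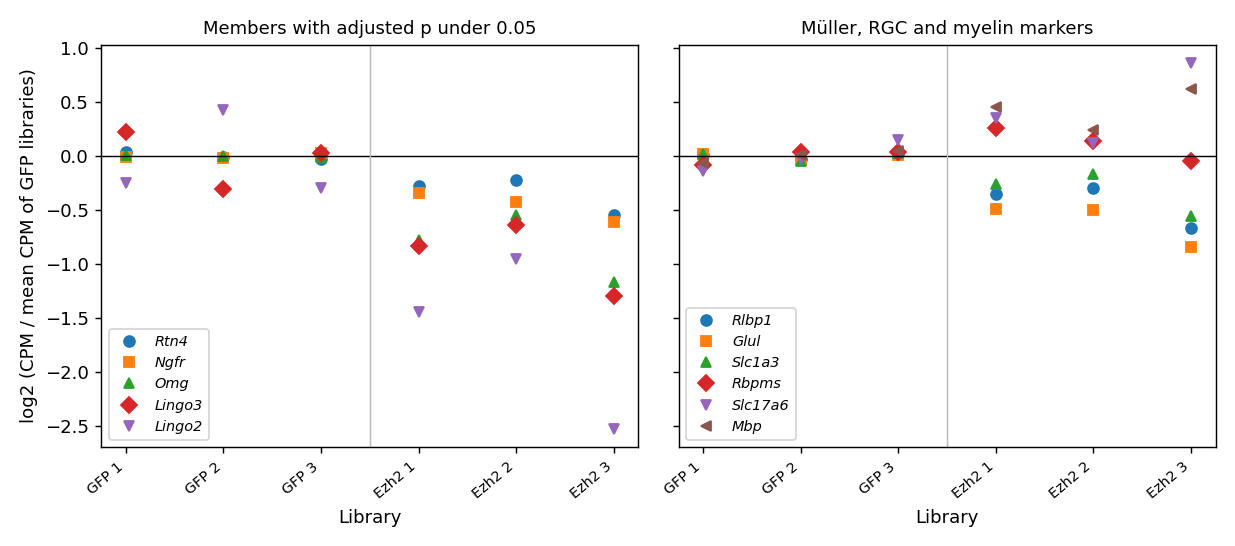
CPM in each library relative to the GFP mean (log2) for the 5 members with an edgeR adjusted p under 0.05 (left) and for markers of Müller glia (*Rlbp1*, *Glul*, *Slc1a3*), RGCs (*Rbpms*, *Slc17a6*) and myelin (*Mbp*) (right). All 5 members lie below 0 in every Ezh2 library, as do the 3 Müller glia markers, and *Mbp* lies above 0 there.

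Ezh2 replicate 3, which did not enter the comparison of 5 libraries, was below every GFP library for 7 of the 10 members. It was below both other Ezh2 libraries for 7. The share of all tested genes with these patterns was not computed, so whether these counts are particular to the members is not known. The members above the GFP mean in Ezh2 replicate 3 were *Rtn4r*, *Rtn4rl2* and *Lingo1*. This library is no independent sample for the direction, since the same GFP libraries serve in both comparisons.

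The nearest genes on either side of the members were read as well. Next to *Rtn4*, *4931440F15Rik* had a log2 fold change of -0.54 (edgeR adjusted p = 0.0467) and *Clhc1* of 0.12 (adjusted p = 0.916). Next to *Lingo3*, *Oaz1* had a log2 fold change of 0.20 (edgeR adjusted p = 0.0113) and *Lsm7* of 0.09 (adjusted p = 0.745). Next to *Ngfr*, *Nxph3* and *Phb* had log2 fold changes of -0.13 and 0.08 (adjusted p = 0.887 and 0.565). Next to *Rtn4r*, *Prodh* had a log2 fold change of -0.35 (edgeR adjusted p = 5.25e-05). Next to *Rtn4rl1*, *Rpa1* had one of 0.21 (adjusted p = 0.0084) and *Dph1* of 0.18 (adjusted p = 0.368). Next to *Rtn4rl2*, *Slc43a3* had one of 0.27 (adjusted p = 0.0429) and *Slc43a1* of 0.88 (adjusted p = 0.0582). Next to *Lingo2*, *C9orf72* had one of 0.11 (adjusted p = 0.384). Next to *Mag*, which had no detected change, *Cd22* was called higher, at 1.00 ± 0.10 on the log2 scale (edgeR adjusted p = 1.29e-08).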

How the data were processed

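The authors deposited raw read counts per Ensembl gene for 6 stranded total RNA libraries (TruSeq), aligned with STAR 2.7.0d to GRCm38 per the submitters' processing notes. The counting program, annotation release and strand setting are not given in the sources used here. Symbols, positions and exon lengths came from GENCODE M21. The members and all gene lists were chosen with earlier results of these data known. Genes named beside the 10 members are the other receptors, the first 3 and the called genes of each list, overlapping genes and nearest neighbours. Values of some markers and neighbours are not reported here.

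Counts were filtered with filterByExpr, scaled by TMM and fitted over all genes in R 4.3.3 by the robust quasi-likelihood method of edgeR 4.0.16, with Benjamini-Hochberg adjustment over all tested genes. SEs and 95% confidence intervals were derived from the F statistic. CPM used library totals. Every pair of libraries of a group differed by more than counting noise, so each counted in n as a library. That difference does not show that the libraries came from separate animals. The alternatives tried were all 6 libraries, omission of each library in turn, a replicate block, other scaling factors, DESeq2 1.42.0, limma-voom (limma 3.58.1), other filters, glmTreat and, chosen after seeing the data, no robust moderation. The fit was tested on simulated counts. CG counts used promoter windows from RefSeq. Figures were drawn with matplotlib 3.10.9.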

Additional observations from a re-analysis of the deposited data

Results flagged for a closer look

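Ezh2 replicate 3, which the main comparison left out, had *Rtn4r* at 0.528 CPM (19 counts, exact 95% Poisson interval for counting error only, 0.318 to 0.825), above the 0.131 to 0.358 CPM of the GFP libraries, and the interval reaches into their range. The same library had *Rtn4rl2* at 1.17 CPM (42 counts, interval 0.842 to 1.58), where the GFP libraries ranged from 0.262 to 1.14 CPM. Both were noticed because they are signals, in a library outside the main comparison, above every control library. Neither gene passed the edgeR test when that library was included, with adjusted p values of 0.714 and 0.76.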

How the results depend on the processing

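The count of members called lower was 3 in the 5 libraries. It was 0 with glmTreat, which tests against the fold threshold itself, 5 without a fold threshold, and 1 with a replicate block in all 6 libraries. Leaving out 1 library in turn gave 0 to 3, with 1 (*Lingo3*) without Ezh2 replicate 1 of the 5 libraries, 1 (*Omg*) without Ezh2 replicate 1 of the 6, and 0 without GFP replicate 1, 2 or 3 of the 6. No alternative called a member higher, and leaving out libraries gave 0 to 0 such calls. The count of other pathway genes called was 1, and 0 with all 6 libraries, the replicate block in all 6 libraries, DESeq2, a filter at 50 counts on average, glmTreat and no robust moderation. It was 8 without a fold threshold and 0 to 1 when a library was left out, and these alternatives were chosen after seeing the data.

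The replicate numbers did not pair the libraries (correlations of same-numbered deviations of -0.00502, -0.0197 and -0.0102). With the replicate block in the 5 libraries the members called were *Omg*, *Lingo2* and *Lingo3*, and in all 6 libraries *Omg*, with *Lingo3* at an edgeR adjusted p of 0.0578. *Lingo2* lost its call in 14 of 20 alternatives, among them DESeq2 (adjusted p = 0.0648) and limma-voom (0.0944). *Lingo3* lost its call in 5 and *Omg* in 4 of 21 alternatives beside glmTreat, and neither turned direction.

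The sign turned only for members without a call. *Mag* was at a log2 fold change of 0.028 with the replicate block in 5 libraries and at -0.585 to 0.026 when a library was left out. *Rtn4r* was at 0.42 with all 6 libraries, 0.17 and 0.36 with the block in 5 and 6, and -0.87 to 0.80 when a library was left out. *Rtn4rl1* was at -0.015 with all 6 libraries and -0.024 with the block in them, and at -0.13 to 0.18 when a library was left out. *Rtn4rl2* was at 0.33 with all 6 libraries, 0.53 and 0.37 with the block, 0.01 with limma-voom, and -0.96 to 0.95 when a library was left out. The cause of these turns was not tested.

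The ratio of *Lingo3* to *Lingo1* differed by -1.21 to -0.86 and that of *Omg* to *Nf1* by -0.65 to -0.43 on the log2 scale when a library was left out. A fit with a single Ezh2 library left assumes that it varies like the GFP group. *Rtn4r* and *Rtn4rl2* had 4 to 42 counts a library. The coefficient of variation of *Rtn4rl2* in the GFP libraries was 66.3%, where counting alone gives 22.0%, so spread beyond counting also widened its interval.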
